A study of Mus musculus with 14 samples.

Results

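DNA repair and damage response genes were examined in mouse epidermis that lacks the histone methyltransferase G9a. The set held 41 genes named for this purpose. They cover homologous recombination, break sensing and checkpoint signalling, Fanconi crosslink repair, end joining, base excision, nucleotide excision and mismatch repair. Genes were matched by current symbol or synonym, and where several probe sets measured a gene the brightest over the 14 arrays stood for it. In this way 40 of the 41 genes were measured, among 17097 genes in all. Xrcc2 was not analysed here, and H2afx is given under its current symbol H2ax.

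Each of the 14 arrays held RNA of epidermal cells from 15-week-old mice with homeostatic skin. The groups were bulge cells with a conditional knockout (cKO) of G9a (n = 4), bulge cells of wild type (WT) mice (n = 3), interfollicular epidermis (IFE) cells with the G9a cKO (n = 4) and IFE cells of WT mice (n = 3). The bulge is the part of the hair follicle where its stem cells reside, and the IFE is the layered skin between the follicles. Neither the Cre driver that deleted G9a nor the way the cells were separated is stated in the labels. They also leave unsaid whether replicates came from separate animals, and the p-values then measure only the spread between these samples. In such bulk samples, fewer cells of a type and less RNA per cell cannot be told apart.

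Cells repair DNA by several routes that recognise different lesions. Breaks across both strands are either joined end to end or copied from the sister chromatid by homologous recombination, in which BRCA1, BRCA2 and PALB2 act. Bulky lesions such as those made by ultraviolet light, a main threat to the epidermis, are removed by nucleotide excision repair, while single damaged bases and mismatches have pathways of their own. Kinases such as ATM and ATR report the damage and hold the cell cycle. G9a, encoded by Ehmt2, places methyl groups on histone H3 lysine 9, a mark found at silenced genes.

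Signals are log2 values per probe set, and a gene passed the test where its adjusted p was under 0.05 (limma, Benjamini-Hochberg over all genes). One Ehmt2 probe set was lower by 3.68 in cKO than in WT bulge cells and by 3.66 in IFE cells, while its other probe set differed by 0.01 and 0.08. Median signals of the arrays lay between 5.76 and 5.84, and precision is limited by how many arrays there are. The compartments parted on the first principal component (72.5% of the variance), with bulge cKO replicates 2 and 3 at -6.9 and -11.3 and the other bulge cKO arrays at -36.7 and -37.2. IFE cKO replicates 2 and 3 stood at 23.3 and 23.0, against 40.1 and 37.4 for the other IFE cKO arrays. On replicates 2 and 3 the 10 bulge stem cell markers averaged 9.46 and 9.60, against 10.24 and 10.39 on replicates 1 and 4. On IFE cKO replicates 2 and 3 they averaged 7.62 and 7.67, against 6.97 and 7.01 on replicates 1 and 4. All 10 of these markers passed the test as higher in bulge than in IFE cells of WT mice. The deposited table held no detection calls, and 17 genes of other tissues read between 3.63 and 7.50 on average, so a low signal alone does not show that a gene was expressed. Of the 40 members, 27 had means at or below that 7.50. The means of 17 members, among them Brca2, Xrcc6 and Exo1, lay at or below 6.50, the 90th percentile of the other-tissue genes. Differences of such members are differences in signal, and their expression is not settled.

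Rad51b was the member that differed most between cKO and WT cells. It encodes a protein that acts in homologous recombination. In bulge cKO cells its signal was 6.43, 6.71, 6.50 and 6.42, against 5.36, 5.40 and 5.17 in bulge WT cells. IFE cKO cells gave 7.48, 7.002, 7.40 and 7.71, against 5.30, 5.45 and 5.45 in IFE WT cells. Every cKO array stood above every WT array, in both compartments, and the IFE cKO arrays stood above the bulge cKO arrays. The difference was 1.21 in bulge cells (SE 0.14, adjusted p = 0.000838) and 2.00 in IFE cells (SE 0.14, adjusted p = 8.55e-06). By p-value it ranked 22nd of 17097 genes in bulge cells and 8th in IFE cells. The WT signals lay below the array medians and within the range of the other-tissue genes, so no fold in transcript is given for them. The gene passed the test in both compartments under all 26 alternatives, with differences from 0.66 to 1.26 in bulge and from 1.09 to 2.20 in IFE cells. Without bulge cKO replicates 2 and 3 the bulge difference was 1.12 (adjusted p = 0.0139).

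The rise was seen on the brighter of the 2 probe sets of Rad51b. The other one differed by 0.10 in bulge cells (adjusted p over all probe sets = 0.361) and by 0.19 in IFE cells (adjusted p = 0.345). The files do not place either probe set along the gene. A rise of the gene as a whole and a rise of some of its transcripts therefore cannot be told apart from these values.

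**Figure D1:**
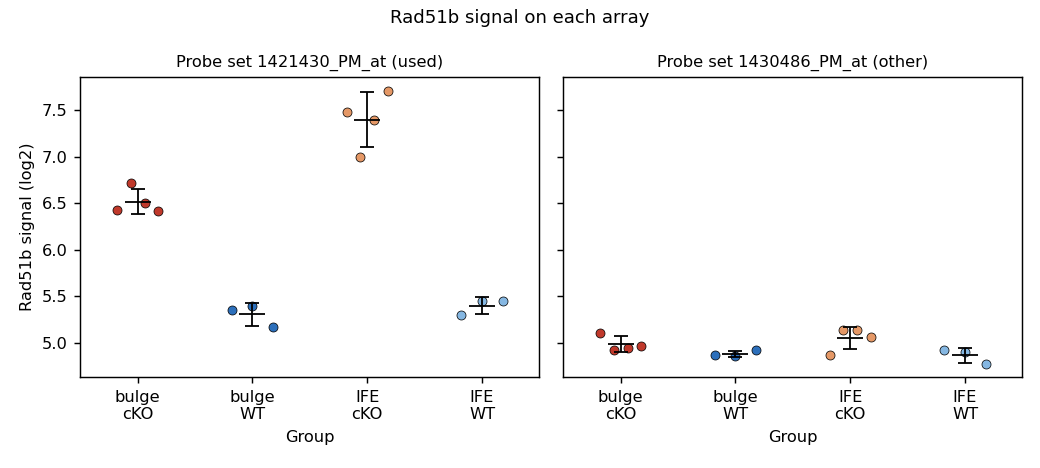
Rad51b log2 signal on each array for both of its probe sets, by group, with the mean and SD as bars. On the probe set used, on the left, the cKO arrays lay between 6.42 and 7.71 and the WT arrays between 5.17 and 5.45, while the other probe set, on the right, differed by 0.10 and 0.19 between the genotypes.

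The genes beside Rad51b on chromosome 12 were looked up after its values had been seen, to show whether the rise was shared along the chromosome. Of the 10 measured genes on either side, 0 of 20 passed the test in bulge or in IFE cells with limma. Among all genes 3.84% passed in bulge and 0.497% in IFE cells, so this count cannot show that the rise was confined to Rad51b. The neighbours' differences ran from -0.48 for Actn1 to 0.91 for Rdh12 in bulge cells, where Rdh12, a retinol dehydrogenase, came nearest to the threshold (adjusted p = 0.0513). In IFE cells they ran from -0.18 to 0.49, the highest again for Rdh12. Rdh11 and Arg2, on the same side, lay at 0.40 and 0.46 in bulge and at 0.30 and 0.36 in IFE cells. The median of the 20 was -0.01 in bulge and 0.06 in IFE cells. Zfyve26, the next measured gene upstream, differed by -0.21 in bulge cells (adjusted p = 0.329) and -0.01 in IFE cells (adjusted p = 0.993).

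**Figure D2:**
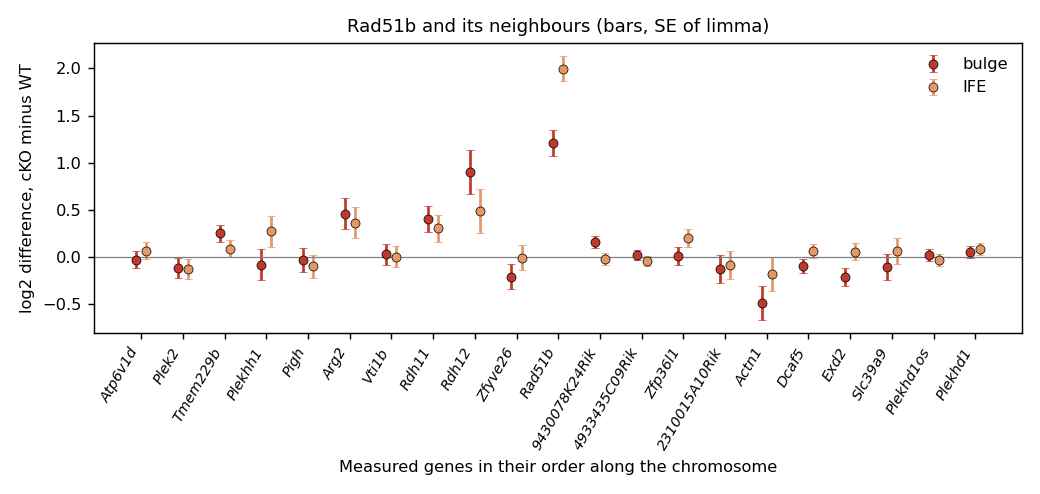
Log2 difference of cKO minus WT for Rad51b and the 10 measured genes on either side of it, in chromosome order, with the SE as bars, for bulge and IFE cells. Rad51b stands at 1.21 and 2.00, and the neighbours lie between -0.48 and 0.91.

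The promoter of Rad51b is shown because this gene passed the test in both compartments. The 250 bases before the first start that the RefSeq promoter table lists for it (GRCm38.p6, chr12:79297032-79297281, plus strand) read 5′ to 3′ as follows, with the only match to a searched motif in capitals.
Rad51b: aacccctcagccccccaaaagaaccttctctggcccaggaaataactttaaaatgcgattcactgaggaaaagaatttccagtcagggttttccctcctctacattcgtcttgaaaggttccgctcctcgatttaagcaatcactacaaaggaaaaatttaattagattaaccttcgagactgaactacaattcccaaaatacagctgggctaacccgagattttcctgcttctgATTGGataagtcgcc
The match ATTGG lies 15 bases before the start and is the NFY motif CCAAT on the opposite strand. The other motifs searched, on both strands, were the E2F letters TTTGGCGC, TTTCGCGC, TTTCCCGC and TTTGCCGC and the CHR letters TTTGAA and TTCGAA. E2F and CHR motifs are known from genes switched on with the cell cycle, and NFY binds CCAAT boxes in many promoters. None of these letters is in the Rad51b window, and a match is only a description of the sequence.

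In bulge cells, 1 of the 40 members rose in the cKO (Rad51b) and 1 fell (Fanci). Among all genes 3.84% passed this test, 1.98% as higher and 1.85% as lower. The 2 members are 5% of those measured. Fanci encodes the partner of FANCD2 in the complex that marks DNA crosslinks for repair. Its signal was 7.31, 7.40, 7.44 and 7.42 in bulge cKO cells, against 7.63, 7.71 and 7.53 in bulge WT cells. The groups did not overlap, and the difference was -0.23 (SE 0.05, adjusted p = 0.041). This call was lost in 17 of 26 alternatives, 9 of them with a single array left out, and with both bulge cKO replicates 2 and 3 left out it was -0.26 (adjusted p = 0.188). A second Fanci probe set differed by 0.03 (adjusted p over all probe sets = 0.835).

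The other 38 members did not pass in bulge cells, and their differences ran from -0.39 (Rad52) to 0.15 (H2ax). Of all 40 members, 29 lay below zero (72.5%), against 46.2% of all genes, and their median was -0.11 against 0.01 for all genes. The members were brighter than genes in general, with a median signal of 6.61 against 6.33. For the 10174 genes brighter than the median of all probe sets, the median difference in bulge cells was -0.045. Averaged over the members, bulge cKO replicates 1 to 4 read 6.766, 6.620, 6.687 and 6.771, against 6.777, 6.780 and 6.777 on the bulge WT arrays, so replicates 2 and 3 were the low ones. Without them 27 of 40 members lay below zero (67.5%), against 49.3% of all genes, and the median was -0.04. Rad52, which anneals single strands during recombination, had signals of 9.46, 8.78, 8.89 and 9.37 in bulge cKO cells, against 9.54, 9.45 and 9.55 in bulge WT cells. Only replicates 2 and 3 stood well below the WT arrays. The difference of -0.39 (SE 0.14, adjusted p = 0.115) shrank to -0.10 without those arrays. Xrcc6 encodes the Ku70 subunit that binds broken ends before they are joined. It read 5.18, 5.23, 5.34 and 5.58 in bulge cKO cells, against 5.77, 5.75 and 5.45 in bulge WT cells. These ranges overlapped, and the difference was -0.33 (SE 0.13, adjusted p = 0.151).

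In nucleotide excision repair, Xpc and Ddb2 showed the same 2 arrays apart. All 4 members of this role lay below zero in bulge cells, with a median of -0.28, and 0 of them passed the test. Xpc, which recognises the distorted helix, read 7.75, 6.69, 7.07 and 8.17 in bulge cKO cells, against 7.82, 7.73 and 7.80 in bulge WT cells. Ddb2, which finds ultraviolet lesions in chromatin, read 8.73, 8.19, 8.35 and 8.77 in bulge cKO cells, against 8.69, 8.82 and 8.98 in bulge WT cells. In both genes replicates 2 and 3 were the lowest of the 7 bulge arrays, while replicate 1 lay within the WT range in both and replicate 4 lay above it for Xpc and within it for Ddb2. Without those replicates the difference of Xpc moved to 0.18 from -0.36 with all arrays, and that of Ddb2 moved to -0.08 from -0.32. That of Xpa, the scaffold that checks the lesion, moved to -0.08 from -0.23. Xpa read 6.65, 6.07, 6.23 and 6.26 in bulge cKO cells, against 6.52, 6.44 and 6.65 in bulge WT cells. Here replicate 4 lay below the WT arrays as well as replicates 2 and 3. A second, dimmer Xpa probe set fell by 0.61 in bulge cKO cells (adjusted p over all probe sets = 0.0359). On it all bulge cKO arrays, at 5.88, 5.08, 5.53 and 5.61, lay below the bulge WT arrays, at 6.15, 6.09 and 6.15.

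Markers of other cell states moved with these arrays. The 10 differentiation markers averaged 7.62, 9.36, 9.10 and 8.61 on the bulge cKO arrays, against 7.64, 7.12 and 7.44 on the bulge WT arrays, and 2 of the 10 passed the test as higher. The 9 Langerhans and antigen presenting cell markers averaged 6.85, 7.45, 7.28 and 7.01, against 6.45, 6.36 and 6.56, and 4 of the 9 passed as higher. Among all genes 1.98% passed as higher. The markers differed unevenly. H2-Ab1, H2-Eb1, Cd74 and H2-Aa were furthest above WT, H2-Ab1 at 8.58 on average against 6.22. Itgax averaged 5.86 against 5.82 and Csf1r 6.33 against 6.20. Epcam, the brightest of the 9, averaged 10.07 against 9.98. Summed on the linear scale, all 9 markers ran from 2099 to 2857 in bulge cKO cells and from 1570 to 1711 in bulge WT cells. The 5 measured T cell markers summed to between 248.1 and 653.4 in bulge cKO cells and between 210.7 and 256.3 in bulge WT cells, with 0 of 5 passing. The bulge stem cell markers summed to between 10210 and 17670, against 18240 to 19180. Their part in the values of the repair genes was not tested.

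In the remaining roles 0 members other than Rad51b and Fanci passed in bulge cells with limma. Besides Rad51b, the 11 measured recombination genes had differences from -0.39 to 0.12, and Brca1, Brca2 and Palb2, which act together in homologous recombination, differed by 0.03, -0.01 and -0.05. Of the 10 break sensing and checkpoint genes 8 lay below zero, the lowest being Mdc1, a scaffold at marked chromatin, with -0.24. Mre11a averaged 6.75 in bulge cKO and 6.69 in bulge WT cells on the probe set used. Its other, dimmer probe set read 5.93, 5.83, 5.99 and 5.94 in bulge cKO cells, against 6.32, 6.20 and 6.24 in bulge WT cells, without overlap. Atm, the kinase that answers double-strand breaks, read 7.99, 7.70, 7.91 and 7.95 in bulge cKO cells, against 8.22, 8.05 and 8.03 in bulge WT cells. These ranges did not overlap, but its difference of -0.21 (SE 0.10) did not pass (adjusted p = 0.208). Lig3, the ligase that seals single-strand breaks, differed by -0.18 (SE 0.07, adjusted p = 0.159), and all 4 base excision and single-strand break genes lay below zero. The 95% interval of a member's difference was -0.34 to -0.02 for Lig3 and -1.09 to 0.37 for Xpc, so the precision differed widely between members.

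**Figure D3:**
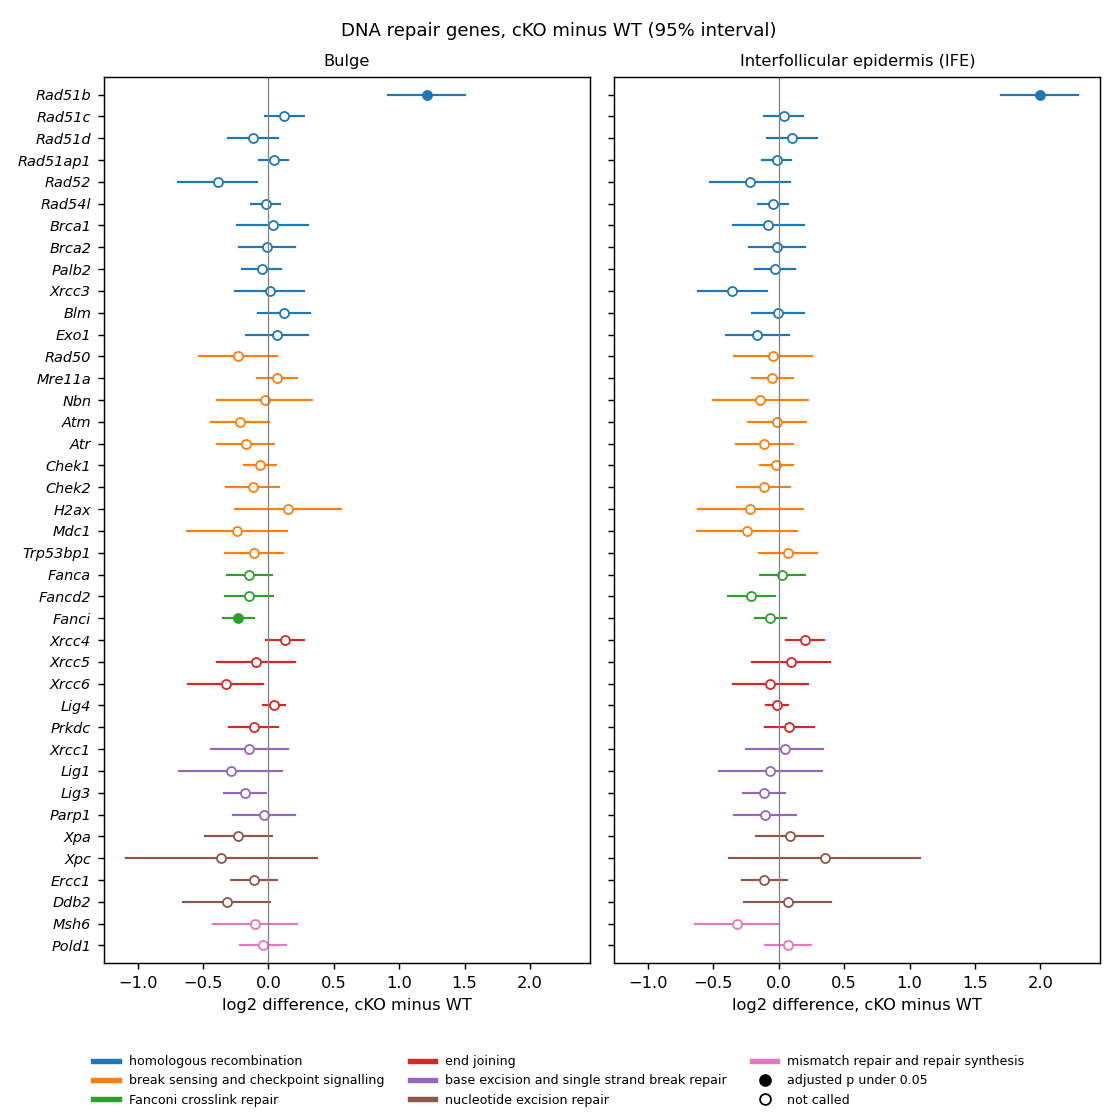
Log2 difference of cKO minus WT with its 95% interval for each of the 40 members, coloured by role, in bulge cells on the left and IFE cells on the right. Filled points passed the test: Rad51b in both panels and Fanci in bulge cells.

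In IFE cells 1 of the 40 members passed the test, Rad51b as higher, which is 2.5% of the members against 0.497% of all genes. The next smallest p belonged to Xrcc4, the scaffold of the ligase in end joining. It read 6.95, 6.90, 6.93 and 6.85 in IFE cKO cells, against 6.73, 6.64 and 6.74 in IFE WT cells. The groups did not overlap, and the difference of 0.20 (SE 0.07) did not pass (adjusted p = 0.271). Xrcc3, which also acts in homologous recombination, read 7.73, 7.58, 7.50 and 7.42 in IFE cKO cells, against 7.94, 7.62 and 8.19 in IFE WT cells. The ranges overlapped, with a difference of -0.35 (SE 0.12, adjusted p = 0.293). Fancd2, the partner of Fanci, differed by -0.21 (adjusted p = 0.369), and Msh6, which recognises base mismatches, by -0.32 (adjusted p = 0.456). Of the 40 members 27 lay below zero (67.5%), against 54.8% of all genes, with a median of -0.04 against -0.01.

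Over both compartments together, 1 of the 40 members passed, Rad51b at 1.60 (SE 0.10, adjusted p = 1.96e-06), against 4.24% of all genes. Fanci averaged -0.15 (adjusted p = 0.0526) and Xrcc4 0.17 (adjusted p = 0.0684), both short of the threshold. Of the members 32 of 40 lay below zero (80%), against 49.8% of all genes. Their median was -0.05, against 0.00 for all genes and -0.028 for the 10174 genes brighter than the median of all probe sets. Without bulge cKO replicates 2 and 3, 26 of 40 members lay below zero (65%), against 51.9% of all genes. The average shares its arrays with both comparisons above.

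Whether the cKO effect differed between the compartments was tested directly. The effect in bulge minus that in IFE cells passed for 0 of 40 members and for 0.105% of all genes with limma, and 1 member had an unadjusted p under 0.05. This was Rad51b, whose effect was smaller in bulge cells by 0.79 (SE 0.19, adjusted p = 0.177). After leaving out IFE cKO replicate 2, the lowest of its group, the value was -0.92 and passed (adjusted p = 0.0494). Next in order of p were Xrcc3 with 0.36 (adjusted p = 0.361), Fanci with -0.16 (adjusted p = 0.362) and Xpa with -0.31 (adjusted p = 0.417). Xrcc3 lay at 0.01 in bulge and -0.35 in IFE cells, and Xpa at -0.23 in bulge and 0.08 in IFE cells.

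A wider list of other repair genes, 113 of 128 measured, was read in the same way. In bulge cells 0 rose and 1 fell in the cKO, 0.885% of the list against 3.84% of all genes. This was Fancc, a subunit of the Fanconi core complex, which ran from 7.29 to 7.40 in bulge cKO cells and from 7.49 to 7.69 in bulge WT cells. Its difference was -0.28 (adjusted p = 0.0131). In IFE cells, over both compartments and for the difference of effects, 0 of 113 passed with limma. Their medians were -0.08 in bulge and -0.05 in IFE cells. With 1 array left out, the count ran from 0 to 12 in bulge cells, from 0 to 2 in IFE cells, from 0 to 7 over both compartments and stayed at 0 for the difference. In bulge cells it was 12 without bulge cKO replicate 4, 3 without bulge cKO replicate 1 or IFE WT replicate 3, 2 without IFE cKO replicate 4 and 0 without bulge WT replicate 1. Of all genes 14.9%, 5.77%, 4.08%, 2.95% and 0.678% passed in these settings in turn. The count was also 0 without both bulge cKO replicates 2 and 3, where 0.678% of all genes passed. In IFE cells it was 2 without IFE cKO replicate 4 and 1 without bulge cKO replicate 2 or 4. There 0.626%, 0.521% and 0.532% of all genes passed. Over both compartments the highest counts were 7 without IFE WT replicate 3, 5 without bulge cKO replicate 4 and 4 without IFE cKO replicate 4. Of all genes 4.43%, 7.78% and 4.52% passed in those settings.

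Damage signalling switches on further genes through p53. Of 19 measured p53 targets, 3 rose and 0 fell in bulge cKO cells, 15.8% of the list, while 1.98% of all genes passed as higher and 1.85% as lower. The list did not move as one. Its median was 0.175, and 4 of the 19 lay below zero (21.1%, against 46.2% of all genes). These 4 were Sesn1, at 8.99 on average against 9.26 in bulge WT cells, Phlda3, Ccng1 and Trp53inp1. Pmaip1, which promotes cell death, read 7.05, 8.58, 8.47 and 7.57 in bulge cKO cells, against 6.01, 6.03 and 6.12 in bulge WT cells, a difference of 1.86 (adjusted p = 0.0108). All cKO arrays stood above the WT arrays, with replicates 2 and 3 the highest. The others that passed were Gadd45a, a stress response gene, with 0.98 (adjusted p = 0.0307), and Cdkn1a, the inhibitor of cell division p21, with 0.82 (adjusted p = 0.0324). Gadd45a read 7.91, 7.86, 7.67 and 7.54 in bulge cKO cells, with replicate 1 the highest, against 6.46, 6.91 and 6.94 in bulge WT cells. Cdkn1a read 10.8, 11.37, 11.22 and 10.7, with replicates 2 and 3 the highest, against 9.85, 10.27 and 10.5. All 3 genes were lower in bulge than in IFE cells of WT mice, with differences of -3.65 for Pmaip1, -2.26 for Gadd45a and -1.26 for Cdkn1a, and bulge cKO replicates 2 and 3 are the bulge arrays that lay nearest the IFE arrays on the first principal component. Without those replicates 1 of 19 passed, Pmaip1 at 1.26 (adjusted p = 0.045), while 0.678% of all genes did. The Gadd45a difference hardly changed, at 0.96, but did not pass with fewer arrays (adjusted p = 0.221). Cdkn1a lay at 0.55 (adjusted p = 0.278). The Pmaip1 call was also lost without bulge WT replicate 1 or 2, the Gadd45a and Cdkn1a calls without either of these or bulge cKO replicate 2 or 3, and the Cdkn1a call without IFE cKO replicate 3 too. In IFE cells 0 of 19 passed with limma. Of 29 proliferation genes 0 passed in either compartment, with medians of 0.09 in bulge and -0.21 in IFE cells.

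Single arrays held many of the lowest or highest member values of a group. IFE WT replicate 3 held the lowest value of its group for 28 of 40 members, and IFE WT replicate 2 held the highest for 25. The proliferation genes averaged 7.82, 7.91 and 7.15 on IFE WT replicates 1, 2 and 3, so the same array was lowest. H2ax, the histone variant phosphorylated beside breaks, read 8.00, 8.10 and 7.31 on those arrays, and Exo1, a nuclease that trims broken ends, read 5.01, 5.19 and 4.66. IFE cKO replicate 4 was the highest of its group for 24 of 40 members and also had the highest proliferation average, 7.86, against 7.18 to 7.32 on the other IFE cKO arrays. Bulge cKO replicate 2 was the lowest of its group for 22 of 40 members. How often these arrays were lowest or highest over all genes was not counted. Other genes gave a similar order in IFE WT cells. The 10 genes of histone H3 lysine 9 methylation averaged 8.02, 8.08 and 7.78 on IFE WT replicates 1, 2 and 3. The upper quartile of all signals was 7.36, 7.37 and 7.29 on those arrays. The part of proliferation or of differences between whole arrays in the member values was not tested.

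The compartments differed in many more repair genes than the genotypes did. In cKO mice 5 of the 40 members were higher and 4 lower in bulge than in IFE cells, 22.5% of the members against 32.1% of all genes, of which 17.6% were higher and 14.6% lower. In WT mice 9 members were higher and 5 lower, 35% of the members against 35.1% of all genes, of which 18.4% were higher and 16.6% lower. Neither share of members lay above that of genes in general. Without replicates 2 and 3 of both cKO groups, 5 members were higher and 3 lower in cKO mice. In IFE cells Rad51b alone passed in cKO against WT under that setting too.

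**Figure D4:**
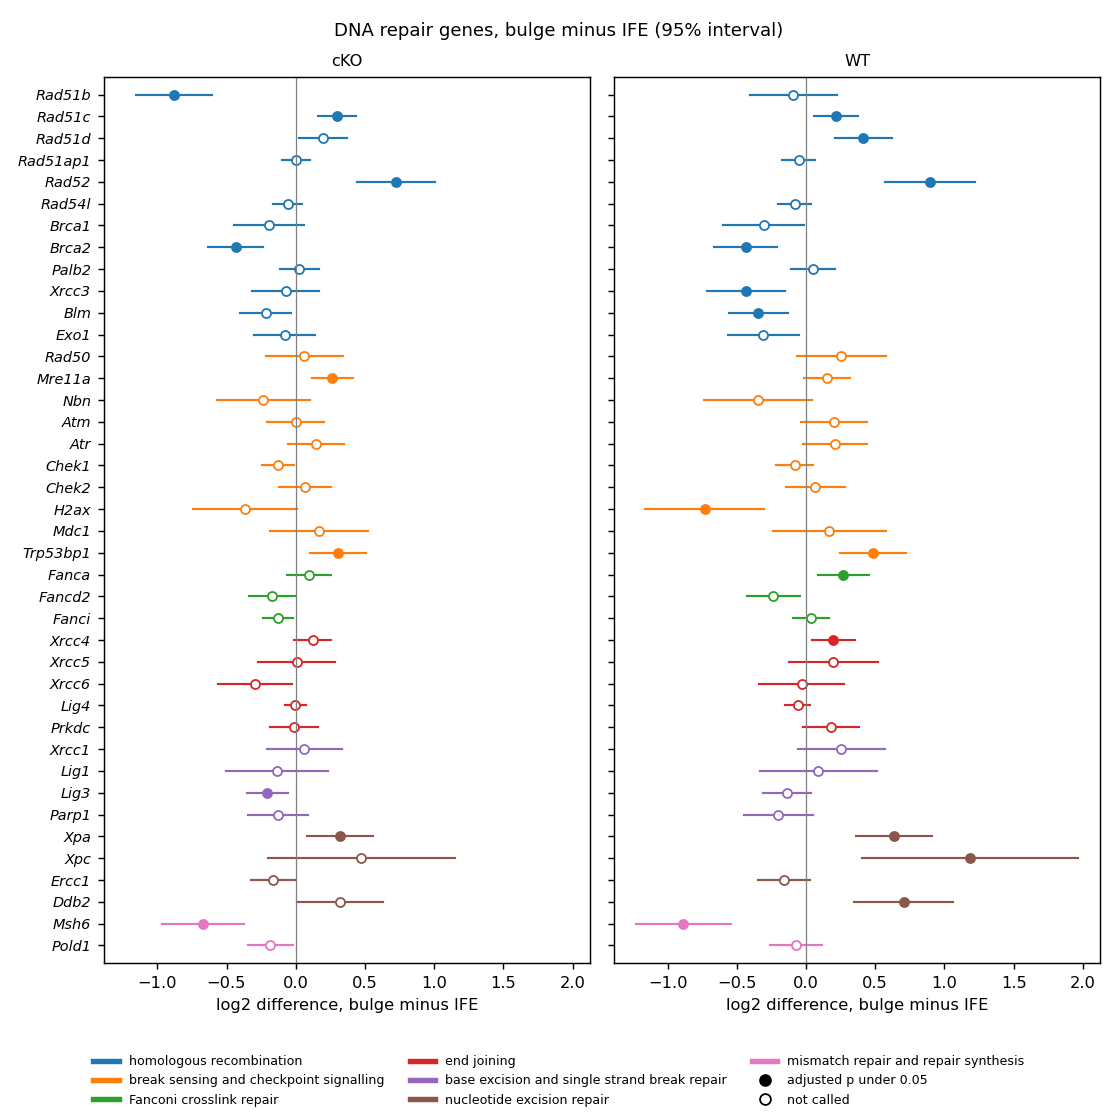
Log2 difference of bulge minus IFE with its 95% interval for each of the 40 members, coloured by role, in cKO mice on the left and WT mice on the right. Filled points passed the test, 9 of 40 in cKO mice and 14 of 40 in WT mice, and Rad51b lies at -0.88 in cKO and -0.09 in WT mice.

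In cKO mice the largest difference between the compartments was that of Rad51b, lower in bulge than in IFE cells by 0.88 (SE 0.13, adjusted p = 0.00048), which restates the values above. Rad52 read 9.46, 8.78, 8.89 and 9.37 in bulge cKO cells, against 8.41, 8.41, 8.45 and 8.31 in IFE cKO cells, and was higher by 0.73 (adjusted p = 0.00156). Msh6 read 7.98, 7.41, 7.81 and 7.71 in bulge cKO cells, against 8.68, 8.19, 8.24 and 8.49 in IFE cKO cells, and was lower by 0.67 (adjusted p = 0.00318). Neither gene's groups overlapped. Brca2 was lower in bulge cells at -0.43 (adjusted p = 0.00364), and Rad51c, a further recombination gene, was higher at 0.30 (adjusted p = 0.00382). The Rad51c call was lost in 1 of 26 alternatives, that with its probe sets averaged (adjusted p = 0.111). Its other probe set read 5.50, 5.10, 5.24 and 5.49 in bulge cKO cells, against 5.17, 5.23, 5.37 and 5.35 in IFE cKO cells, with overlap. Trp53bp1, which encodes the end-protecting factor 53BP1, was higher by 0.30 (adjusted p = 0.0268), a call lost in 7 of 26 alternatives, among them those without bulge cKO replicate 1 or 4 or IFE cKO replicate 1, 2 or 4. Xpa was higher by 0.32 (adjusted p = 0.0416), a call kept in 13 of 26 alternatives. Lig3 was lower at -0.20 (adjusted p = 0.0381), with overlapping groups and a call kept in 11 of 26 alternatives.

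Mre11a, the nuclease of the complex that first binds breaks, read 6.60, 6.90, 6.79 and 6.72 in bulge cKO cells, against 6.49, 6.47, 6.46 and 6.54 in IFE cKO cells. It was higher by 0.27 (SE 0.07, adjusted p = 0.00986) on this probe set and lower by 0.15 on its other one (adjusted p over all probe sets = 0.174), so its direction is unsettled. Its call was also lost without bulge cKO replicates 2 and 3. Ddb2 and Xpc did not pass in cKO mice with all arrays, at 0.32 and 0.47. Without bulge cKO replicates 2 and 3 they passed, at 0.56 (adjusted p = 0.0106) and 1.01 (adjusted p = 0.0246). With IFE cKO replicates 2 and 3 left out as well, Ddb2 passed at 0.67 (adjusted p = 0.0132) and Xpc did not pass. That each of these genes differed less between the compartments in cKO than in WT mice was not shown, since the difference of effects passed for 0 members.

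Among the roles of the members, nucleotide excision repair had the largest share of genes higher in the bulge in WT mice, 3 of 4. Of all genes 18.4% were higher there, and a role of 4 genes is too small to speak for the pathway. The 11 nucleotide excision genes of the wider list averaged 7.42, 7.40 and 7.31 in bulge WT and 7.41, 7.36 and 7.22 in IFE WT cells. They went both ways. Ddb1 read lower in the bulge, at 8.38 against 8.82 on average, and Uvssa higher, at 7.98 against 7.42. Xpa read 6.52, 6.44 and 6.65 in bulge WT cells, against 5.82, 5.91 and 5.96 in IFE WT cells. Ddb2 read 8.69, 8.82 and 8.98 in bulge WT cells, against 8.28, 8.25 and 7.85 in IFE WT cells. Neither gene's groups overlapped. The differences were 0.63 for Xpa (SE 0.13, adjusted p = 0.00201) and 0.71 for Ddb2 (SE 0.16, adjusted p = 0.00504), and both calls held in all 26 alternatives. Xpc was 1.19 higher (SE 0.36, adjusted p = 0.0217), with 7.82, 7.73 and 7.80 in bulge WT cells against a wide 6.76, 7.10 and 5.92 in IFE WT cells. It lost the call without IFE WT replicate 3, at 0.85, and without bulge WT replicate 1 or 3. Ercc1, a subunit of the nuclease that cuts beside the lesion, did not pass and lay at -0.16. Further probe sets of Xpa and Ddb2 were higher in the bulge too, by 1.26 and 0.34 for Xpa and by 1.06 for Ddb2.

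Recombination genes went both ways, 3 higher and 3 lower of 12 in WT mice, where 18.4% of all genes were higher and 16.6% lower. Rad52 read 9.54, 9.45 and 9.55 in bulge WT cells, against 8.64, 8.49 and 8.72 in IFE WT cells, without overlap. Its difference of 0.90 (SE 0.15, adjusted p = 0.00061) had the smallest p of all members, and a second probe set differed by 0.28 (adjusted p over all probe sets = 0.222). Rad51d, which acts in the same repair route, read 7.21, 7.06 and 7.19 in bulge WT cells, against 6.87, 6.75 and 6.59 in IFE WT cells. It was higher by 0.41 (SE 0.09, adjusted p = 0.00412). Rad51c was higher by 0.22 (adjusted p = 0.0351), a call lost in 8 of 26 alternatives, among them those without bulge WT replicate 3 or IFE WT replicate 1 or 3.

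Brca2, a tumour suppressor gene in humans, read 4.98, 4.87 and 4.94 in bulge WT cells, against 5.39, 5.50 and 5.21 in IFE WT cells. The bulge values were the lower ones without overlap, by 0.44 on average (adjusted p = 0.00586). Blm, the helicase lost in Bloom syndrome in humans, was lower in bulge cells, at -0.35 (adjusted p = 0.0157), and Xrcc3 was lower too, at -0.44 (adjusted p = 0.0198). The Blm call was lost without IFE WT replicate 1 and the Xrcc3 call in 5 of 26 alternatives. Rad51b, Rad54l, Palb2 and Rad51ap1 did not pass in WT mice and lay between -0.09 and 0.05.

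Msh6 had the most negative difference of all members between bulge and IFE cells of WT mice. It read 7.69, 7.90 and 7.90 in bulge WT cells, against 8.50, 8.78 and 8.88 in IFE WT cells, without overlap. The difference was -0.89 (SE 0.16, adjusted p = 0.000913) and passed in all 26 alternatives. H2ax read 6.87, 7.07 and 7.26 in bulge WT cells, against 8.00, 8.10 and 7.31 in IFE WT cells. Its difference was -0.73 (SE 0.20, adjusted p = 0.012), and the lowest IFE array lay just above the highest bulge array. The call was lost in 3 of 26 alternatives, among them those without bulge WT replicate 1 or IFE WT replicate 2.

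Trp53bp1, whose product favours end joining, read 9.34, 9.65 and 9.66 in bulge WT cells, against 9.05, 9.24 and 8.91 in IFE WT cells, and was higher in the bulge by 0.48 (SE 0.11, adjusted p = 0.00405). Both of its other probe sets were higher as well, by 0.33 and 1.14. Fanca, a subunit of the Fanconi core complex, was higher by 0.27 (adjusted p = 0.0262), a call lost in 4 of 26 alternatives, among them those without bulge WT replicate 1 or IFE WT replicate 2 or 3. Xrcc4 was higher by 0.20 (adjusted p = 0.0489), a call lost in 21 of 26 alternatives. The 4 base excision and single-strand break genes and the kinases Atm, Atr, Chek1 and Chek2 did not pass on the probe sets used. Chek1 halts division when replication stalls. Of its 4 other probe sets, 2 were lower in the bulge, at -0.29 and -0.26, and 2 did not pass, at -0.10 and -0.03.

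**Figure D5:**
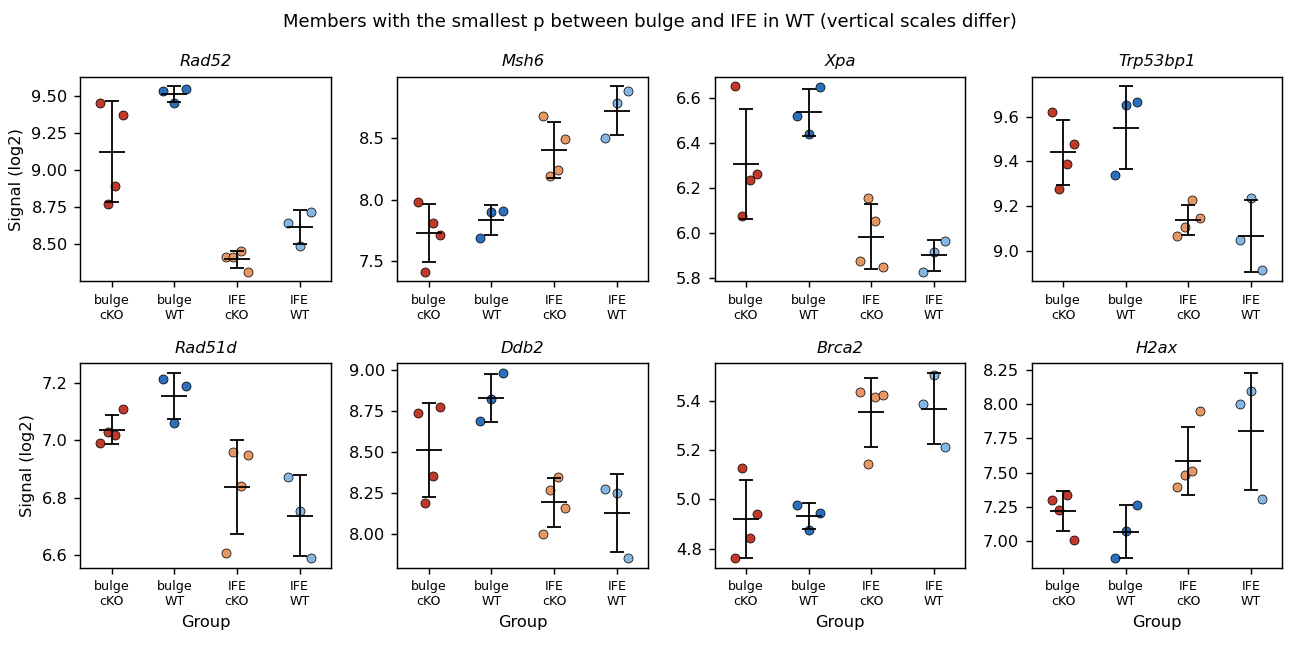
Log2 signal on each array for the 8 members with the smallest p between bulge and IFE cells of WT mice, with the mean and SD as bars and a vertical scale of its own for each gene. Rad52, Xpa, Trp53bp1, Rad51d and Ddb2 are higher in bulge cells, Msh6, Brca2 and H2ax lower, and bulge cKO replicates 2 and 3 are the lowest bulge arrays for Rad52 and Ddb2.

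The compartments also differed in dividing cells and cell makeup. All 29 proliferation genes lay below zero for bulge minus IFE cells, 11 of them passing in cKO mice and 23 in WT mice, with medians of -0.53 and -0.73. Their summed signal ran from 3564 to 4622 in bulge cKO cells and from 5287 to 8972 in IFE cKO cells. In WT mice it ran from 3618 to 4586 in bulge and from 5089 to 9272 in IFE cells. Differentiation markers summed to between 4867 and 5963 in bulge WT cells and between 11780 and 16450 in IFE WT cells. Of the p53 targets 3 were higher and 10 lower in bulge than in IFE cells of WT mice, with Plk2, a kinase of the stress response, at -2.77 beside the values of Pmaip1 and Gadd45a given above. The part of these differences in the repair genes was not tested.

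Promoters of 5 members that passed between the compartments are shown with their motif matches in capitals, to set genes higher in the bulge beside genes lower there. Each is the 250 bases before the start that the RefSeq promoter table gives (GRCm38.p6), written 5′ to 3′ on the gene's own strand. For Brca2, Blm, Xpa and Xrcc3 that start lies inside the outermost bounds RefSeq gives the gene. The Brca2 window therefore lies wholly within those bounds, and the windows of the other 3 overlap them in part. Msh6 (chr17:87974800-87975049, plus), Brca2 (chr5:150522371-150522620, plus), Blm (chr7:80534999-80535248, minus) and Xrcc3 (chr12:111813880-111814129, minus) were lower in bulge cells. Xpa (chr4:46196312-46196561, minus) was higher.
Msh6: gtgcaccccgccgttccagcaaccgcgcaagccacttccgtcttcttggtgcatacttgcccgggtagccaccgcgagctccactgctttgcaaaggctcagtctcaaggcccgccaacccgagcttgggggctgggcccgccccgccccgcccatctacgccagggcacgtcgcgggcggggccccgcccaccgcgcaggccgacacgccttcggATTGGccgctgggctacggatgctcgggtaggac
Brca2: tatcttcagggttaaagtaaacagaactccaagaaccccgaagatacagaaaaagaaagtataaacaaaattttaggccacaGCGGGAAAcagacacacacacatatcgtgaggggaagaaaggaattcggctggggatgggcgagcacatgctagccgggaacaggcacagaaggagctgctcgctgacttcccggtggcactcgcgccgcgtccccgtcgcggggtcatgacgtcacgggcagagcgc
Blm: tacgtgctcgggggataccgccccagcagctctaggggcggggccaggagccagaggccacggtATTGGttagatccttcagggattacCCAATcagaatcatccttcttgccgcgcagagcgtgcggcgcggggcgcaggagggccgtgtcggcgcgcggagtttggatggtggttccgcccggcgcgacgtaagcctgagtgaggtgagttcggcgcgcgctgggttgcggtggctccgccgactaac
Xrcc3: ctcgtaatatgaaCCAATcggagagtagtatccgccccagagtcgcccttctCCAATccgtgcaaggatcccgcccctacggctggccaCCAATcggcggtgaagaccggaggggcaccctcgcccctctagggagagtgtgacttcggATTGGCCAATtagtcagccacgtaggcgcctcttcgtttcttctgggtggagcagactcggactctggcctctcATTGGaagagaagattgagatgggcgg
Xpa: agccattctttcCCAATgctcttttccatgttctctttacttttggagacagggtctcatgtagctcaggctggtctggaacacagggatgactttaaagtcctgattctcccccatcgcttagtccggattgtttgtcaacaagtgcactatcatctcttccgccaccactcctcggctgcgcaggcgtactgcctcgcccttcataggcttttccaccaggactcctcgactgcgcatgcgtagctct

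Of these, the Brca2 window held an E2F match, GCGGGAAA on the opposite strand, 168 bases before the start given in that table and inside the gene's outermost bounds. Msh6 and Xpa each held 1 NFY match and Blm 2, while Xrcc3 held 6, of which 2 lie directly side by side without overlap. A RefSeq promoter was found for 31 of the 40 members. An E2F match was present in 4 of these 31 (12.9%), namely Brca2, Chek2, Mdc1 and Xrcc6, against 1.91% of 27025 promoters of the same length. An NFY match was present in 15 of 31 (48.4%), against 34.5% of all promoters, and a CHR match in 1 of 31 (3.23%), against 17.4%. Of the 4 genes with an E2F match, Brca2 passed in the compartment comparisons and the others did not.

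The wider repair genes also went in both directions. In cKO mice 13 of 113 were higher and 15 lower in bulge than in IFE cells, 24.8% of the list against 32.1% of all genes. In WT mice 23 were higher and 21 lower, 38.9% against 35.1%. With 1 array left out, the number passing ran from 19 to 33 in cKO mice and from 28 to 46 in WT mice, the 28 without bulge WT replicate 1. The share of all genes then ran from 24% to 33.9% in cKO mice and from 28.1% to 36.2% in WT mice. Wee1, the kinase that delays mitosis, ran from 7.69 to 8.16 in bulge cKO cells and from 8.996 to 9.79 in IFE cKO cells, a difference of -1.32 (adjusted p = 0.000477). In WT mice it ran from 7.16 to 7.74 in bulge and from 9.30 to 9.74 in IFE cells, a difference of -2.11 (adjusted p = 2.79e-05). Hus1, part of the clamp that activates ATR signalling, was higher in bulge cells by 0.74 in cKO mice (adjusted p = 0.00177) and by 1.27 in WT mice (adjusted p = 8.06e-05). In cKO mice Polk, a polymerase that copies past lesions, lay at -0.40, Rad23b, the partner of XPC, at -0.42, and Nthl1, which removes oxidised bases, at 0.51. In WT mice the Fanconi genes Fancc and Fancg were higher in bulge cells by 0.60 and 1.17. Rrm2b, which supplies nucleotides for repair, was higher by 0.46, and Uvssa, which acts in repair of transcribed strands, by 0.56.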

How the data were processed

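Biotin-labelled cDNA, amplified from TRizol-extracted RNA of bulge and IFE cells, was measured, per the labels, on Affymetrix arrays. Deposited signals are on a log2 scale, made by the authors with RMA, per the submitters' processing notes, and no version is named there. RMA equalises the distribution of signals between arrays, so shifts common to all genes are removed. The table held 45141 probe sets on 14 arrays. A single gene symbol was found for 28898 probe sets, through the platform annotation and RefSeq (GRCm38.p6), and 17097 genes were tested; 22 of the 40 measured members had several probe sets.

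The 14 arrays were fitted together, each group having its own mean and all sharing 10 residual degrees of freedom, by lmFit and eBayes (limma 3.58.1, R 4.3.3). Tests were two-sided with Benjamini-Hochberg adjustment over all genes, and the threshold was 0.05, over 6 comparisons. SE and intervals are those of limma. The model was tested on simulated data. The members and all gene lists were chosen with earlier results of these data known. All members could be named; up to 8 called members per comparison were given per array, with the 4 of smallest p where none was called, and up to 6 called genes of the wider list and 3 of the other lists were named. Promoters were printed for up to 5 called members that hold a searched motif. Values per array of other members were added after they were seen. The closing section gives the effect of other normalizations, filters, probe set rules, models and left-out arrays. The setting without replicates 2 and 3 of both cKO groups was chosen after seeing the data.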

Additional observations from a re-analysis of the deposited data

Results flagged for a closer look

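For each member, the highest or lowest array of each cKO group was set against the gap to its neighbour and the range of the group, which gave 80 groups of 4 arrays. A single array stood far from the others in 2 of them, and chance alone marks about 1 in 20 groups. Chek1 read 5.032 on bulge cKO replicate 3, against 5.115 to 5.131 on the other bulge cKO arrays, a gap of 0.835 of the range. Brca2 read 5.145 on IFE cKO replicate 2, against 5.414 to 5.434 on the other IFE cKO arrays, a gap of 0.932 of the range. Both probe sets read below the array medians. The Brca2 calls between the compartments were kept in all 25 alternatives run, in cKO and in WT mice.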

How the results depend on the processing

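The number of members that passed depended on the processing mainly where calls lay near the threshold. In bulge cells 2 members passed in cKO against WT, where 3.84% of all genes did. The count was 1, Rad51b alone, under cyclic loess, with only genes above the median signal and with a gene's probe sets averaged. It was also 1 under the intensity trend with robust fitting and with a fit of only the groups compared. Without bulge cKO replicates 2 and 3, or cKO replicates 2 and 3 of both compartments, it was 1 as well. Of all genes 3.6%, 4.01%, 4.74%, 4.49%, 0.421%, 0.678% and 0.468% passed in these settings in turn. With the probe set of largest interquartile range Xpa passed too, at -0.61 (adjusted p = 0.0364), where 3.7% of all genes did. Over both compartments 1 member passed, against 2 under cyclic loess, median centring and the mean of probe sets, 3 with the probe set of largest interquartile range and 3 at an adjusted p under 0.1. Of all genes 4.24% passed, against 4.67%, 4.45%, 4.95%, 4.38% and 9.05% in these settings in turn. In cKO mice 9 members passed between bulge and IFE cells, where 32.1% of all genes did. At an adjusted p under 0.1 it was 15 members and 40.7% of all genes.

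Array weights gave 16 members in bulge cells, 3 in IFE cells, 9 for the difference of effects, 12 over both compartments and 23 between compartments in cKO mice. The weights did not converge and gave bulge cKO replicate 3 a weight of 15.5, and 48.2% of all genes then passed in bulge cells, against 3.84%. In the other comparisons named, in turn, 8.53%, 29.1%, 32% and 60.3% of all genes passed under these weights. With 1 array left out, the counts ran from 1 to 3 in bulge cells, 1 to 1 in IFE cells, 0 to 1 for the difference, 1 to 3 over both compartments, 6 to 12 between compartments in cKO mice and 10 to 15 in WT mice. The shares of all genes, in turn, ran from 0.678% to 14.9%, 0.222% to 0.626%, 0.0175% to 1.4%, 1.69% to 7.78%, 24% to 33.9% and 28.1% to 36.2%.

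Mre11a changed sign with the probe set of largest interquartile range, to -0.29 over both compartments (adjusted p = 0.027) and to -0.15 between compartments in cKO mice (adjusted p = 0.173). Other scalings moved the median of all genes by less than 0.1.

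With the replicate number as a block, 1 member passed in bulge cells, 1 in IFE cells, 0 for the difference, 1 over both compartments, 6 between compartments in cKO mice and 11 in WT mice. Of all genes 2.41%, 0.193%, 0.0117%, 2.81%, 27.3% and 31.4% passed in turn. Correlations of arrays with the same number were mixed or negative, except between the WT groups, where all were above zero. They ran from -0.365 to 0.181 in bulge cells, from -0.616 to -0.196 in IFE cells, from -0.57 to 0.151 between the cKO groups and from 0.0359 to 0.251 between the WT groups, and not every array correlated best with its own number. Between the WT groups, arrays with different numbers ran from -0.254 to 0.136, so a pairing there is not settled.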
